A study of Mus musculus with 4 samples.

Results

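The genes described here encode 3 CIDE proteins (Cidea, Cideb and Cidec), 4 perilipins (Plin2, Plin3, Plin4 and Plin5) and 3 proteins of droplet lipolysis (G0s2, Pnpla2 and Mgll). They were taken by name, as every probe set whose only gene symbol on the platform was one of these 10, which gave 15 of 45037 probe sets and 10 of 18193 named genes. Liver RNA of male mice was hybridised to 4 Affymetrix arrays, 1 per group: LASS2-/- on high-fat diet (HFD), wild type (WT) on HFD, LASS2-/- on chow, and WT on chow. The HFD supplied 60% and the chow 10% of calories as fat, and both diets started when the mice were 3 weeks old. LASS2 is an older name of Cers2, a ceramide synthase. The labels do not describe the mutation, the age at collection or how many mice contributed RNA to each array. With 1 array per group, no value has an error between animals.

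Hepatocytes store triglyceride in lipid droplets, which are bounded by a phospholipid monolayer and coated by proteins. Cidea and Cidec gather at contacts between droplets and promote their fusion, and both are scarce in lean liver and abundant in fatty liver. Cideb, the CIDE protein of normal liver, also takes part in the lipidation of very-low-density lipoprotein. Perilipins coat droplets and limit or direct the access of lipases. Pnpla2 encodes adipose triglyceride lipase (ATGL), which starts triglyceride breakdown, G0s2 encodes an inhibitor of ATGL, and Mgll encodes monoglyceride lipase, which completes the breakdown.

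The promoter windows below stand for the patterns described later: Cidec, Plin4 and Plin5, which were higher on HFD, G0s2, which was lower on HFD, and Plin2, whose signal was highest on the LASS2-/- chow array and passed no test. No window is shown or searched for Cidea. They come from RefSeq on assembly GRCm38.p6, run from 250 bases before to 50 bases after an annotated start, and are read 5′ to 3′ on the gene's strand, here the minus strand in every case. Capitals mark AGGTCA or its reverse complement, the element that nuclear receptors such as PPARs bind in pairs.
Cidec (chr6:113435711-113436010, minus strand): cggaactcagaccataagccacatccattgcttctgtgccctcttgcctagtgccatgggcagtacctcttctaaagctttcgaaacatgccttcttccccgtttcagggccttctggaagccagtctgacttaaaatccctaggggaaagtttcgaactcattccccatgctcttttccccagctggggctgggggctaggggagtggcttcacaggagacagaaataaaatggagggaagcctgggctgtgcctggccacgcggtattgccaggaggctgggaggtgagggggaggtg
Cidec (chr6:113434715-113435014, minus strand): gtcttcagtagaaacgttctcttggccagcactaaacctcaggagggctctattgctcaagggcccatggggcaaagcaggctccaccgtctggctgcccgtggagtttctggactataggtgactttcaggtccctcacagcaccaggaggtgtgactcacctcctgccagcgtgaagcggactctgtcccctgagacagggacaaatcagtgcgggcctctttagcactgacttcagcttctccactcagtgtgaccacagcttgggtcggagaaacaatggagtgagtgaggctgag
Plin4 (chr17:56109733-56110032, minus strand): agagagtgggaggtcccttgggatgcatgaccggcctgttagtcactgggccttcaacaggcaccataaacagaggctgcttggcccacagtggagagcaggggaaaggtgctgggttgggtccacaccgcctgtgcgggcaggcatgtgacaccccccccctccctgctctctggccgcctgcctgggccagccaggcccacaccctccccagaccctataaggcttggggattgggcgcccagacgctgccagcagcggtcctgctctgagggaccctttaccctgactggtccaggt
Plin5 (chr17:56117499-56117798, minus strand): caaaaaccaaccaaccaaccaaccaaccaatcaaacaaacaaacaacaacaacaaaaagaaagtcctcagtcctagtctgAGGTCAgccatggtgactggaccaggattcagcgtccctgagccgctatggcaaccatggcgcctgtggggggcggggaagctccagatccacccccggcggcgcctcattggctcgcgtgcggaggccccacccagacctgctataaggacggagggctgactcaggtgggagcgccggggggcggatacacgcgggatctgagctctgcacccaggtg
Plin2 (chr4:86670010-86670309, minus strand): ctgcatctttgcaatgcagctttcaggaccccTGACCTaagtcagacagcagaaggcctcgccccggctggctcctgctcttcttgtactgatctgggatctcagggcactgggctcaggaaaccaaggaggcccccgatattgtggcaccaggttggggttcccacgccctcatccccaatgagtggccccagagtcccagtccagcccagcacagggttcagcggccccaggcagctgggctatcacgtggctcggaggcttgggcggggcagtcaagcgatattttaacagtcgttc
G0s2 (chr1:193273139-193273438, minus strand): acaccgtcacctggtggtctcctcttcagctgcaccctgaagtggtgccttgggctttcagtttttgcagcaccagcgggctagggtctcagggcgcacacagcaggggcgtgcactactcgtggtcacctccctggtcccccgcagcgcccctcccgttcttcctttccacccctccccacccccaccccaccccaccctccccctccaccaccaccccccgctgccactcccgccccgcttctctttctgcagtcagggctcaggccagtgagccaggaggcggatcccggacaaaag
Plin4 and Plin5 are neighbouring coding genes on chromosome 17, with no other coding gene between them. Of the 10 members, 9 had windows that were searched, 12 in all. A search on both strands found AGGTCA in the Plin2 window and in both Plin5 windows, and such a match occurs in 16.3% of 32851 mouse promoter windows. The element lies in none of the other 9 windows, the Cidec, Plin4 and G0s2 windows included. The paired element, AGGNCA repeated in the same direction after 1 base of any kind, is present in 0.381% of windows and had no match among the 12. The letters TATAAA, a form of the TATA box present in 13.6% of windows, matched once, in Cideb at position -172 relative to the start. Other forms of the TATA box were not searched. TCACNCCAC, TTGCGCAA and TGACGTCA had no match, and TGACG, present in 20.8% of windows, matched in G0s2 and in 1 Mgll window. These matches describe letters only and say nothing of binding.

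Signals are on the log2 scale, as deposited, so that a difference of 1 is a 2-fold change. A floor was set at the median log2 signal of each array, which was 6.19 for LASS2-/- HFD, 6.19 for WT HFD, 6.28 for LASS2-/- chow and 6.17 for WT chow. A gene entered when a probe set reached the floor on at least 1 array. This left 12493 genes, including all 10 members, and each gene was represented by its brightest such probe set. Cidea reached the floor on 3 arrays, with LASS2-/- chow barely above it, and the other 9 members reached it on all 4. Cers2, the targeted gene, had 12.32 on LASS2-/- HFD, 12.25 on WT HFD, 12.32 on LASS2-/- chow and 12.46 on WT chow. Its 1 probe set thus did not show a loss on the arrays labelled LASS2-/-, and the part of the transcript that it reads was not determined. Genotypes are therefore those of the labels throughout.

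**Figure D1:**
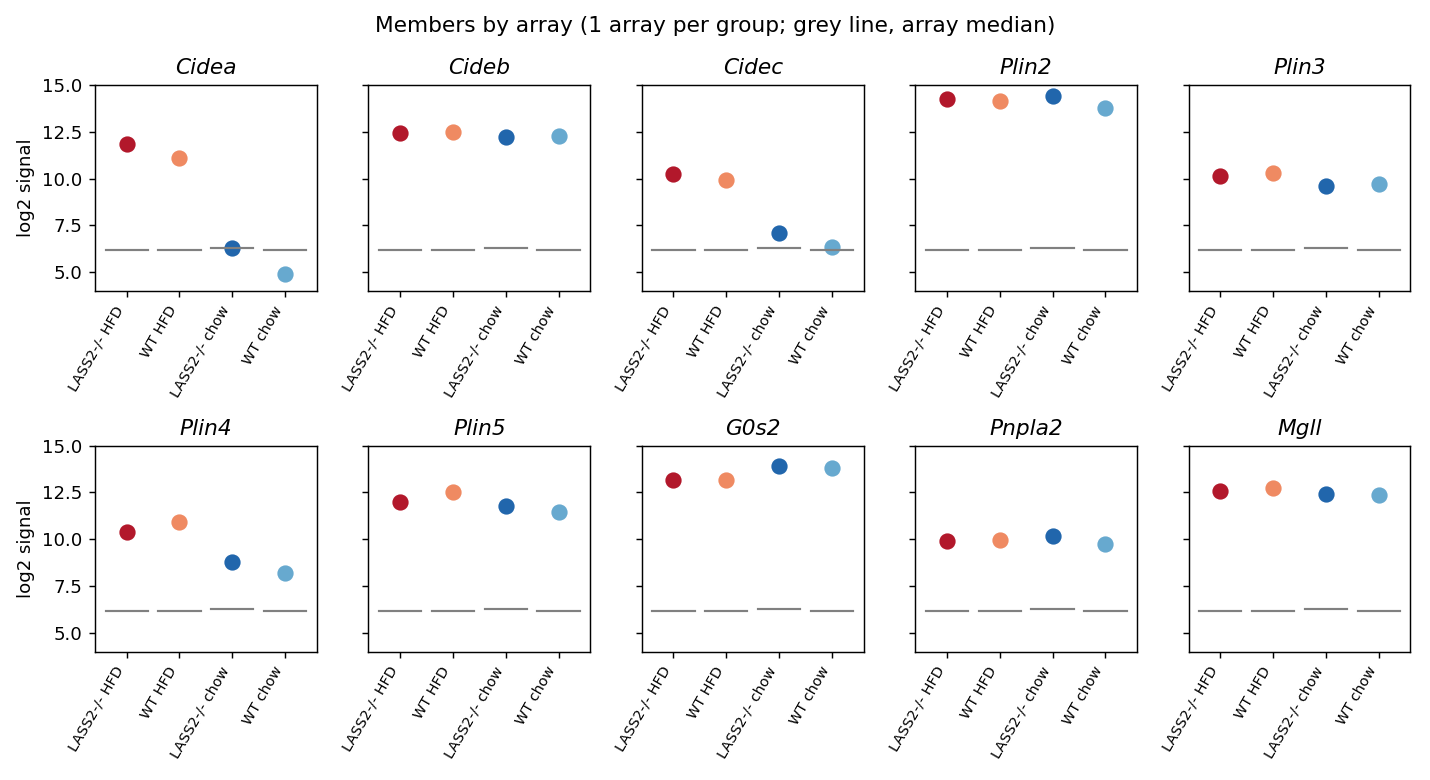
Log2 signal of each of the 10 genes on each array, 1 point per array and no error bars, with the grey line at the median of that array. Cidea, Cidec and Plin4 stand apart between HFD and chow on both genotype labels, with Cidea close to or below the array median on chow. Cideb, Plin2, Plin3, G0s2, Pnpla2 and Mgll span less than 1 log2 unit over the 4 arrays.

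The HFD was accompanied by higher Cidea, Cidec, Plin4, Plin3 and Plin5 and by lower G0s2. In a limma fit of diet and genotype over all genes, these 5 rose and this 1 fell with diet, and the other 4 did not pass at a Benjamini-Hochberg adjusted p of 0.05. Over all genes, 6.26% rose and 5.04% fell in that fit, 11.3% together. The median diet effect of the 10 members was 0.42 log2, against 0.02 over all genes. The members were chosen with earlier results of these data known, so these contrasts with all genes are descriptions only. By family, 2 of 3 CIDE genes and 3 of 4 perilipins rose, while of the 3 lipolysis genes 1 fell and 2 did not pass. Estimating 3 coefficients from 4 arrays leaves each gene 1 residual degree of freedom, so the moderated standard errors given after ± are mostly drawn from genes of like signal. That 1 degree of freedom is the difference of the diet effect between the genotypes. The standard errors, intervals and adjusted p-values thus measure no spread between animals or replicate arrays. On simulated data that took each gene's moderated spread from this fit, unchanged genes were called more often than the threshold allows. Adjusted p-values may therefore be too small. When that variance was not allowed to depend on signal, 0 of 12493 genes passed, members included, although 1783 genes, 5 members among them, had an unadjusted p under 0.05.

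Cidea had a log2 signal of 11.82 on LASS2-/- HFD and 11.12 on WT HFD, against 6.29 on LASS2-/- chow and 4.88 on WT chow. Both HFD arrays were high, while LASS2-/- chow lay just above the floor and WT chow under it. The array labelled LASS2-/- was the higher one on each diet. The ratio of HFD over chow was 46.2-fold in LASS2-/- and at least 30.8-fold in WT, a bound because WT chow lay under the floor. The mean diet effect was 5.89 ± 0.21 log2 (limma, adjusted p = 1.7e-09) on values without the floor and 5.24 ± 0.21 with values held at it (limma, adjusted p = 6.42e-08).

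Cidec, whose mouse protein is also called Fsp27, had 10.23 on LASS2-/- HFD and 9.94 on WT HFD, against 7.08 on LASS2-/- chow and 6.35 on WT chow. The diets did not overlap, and LASS2-/- was again the higher array on each diet. Its signal was 8.90-fold higher on HFD in LASS2-/- and 12.1-fold higher in WT, with a mean diet effect of 3.38 ± 0.20 log2 (limma, adjusted p = 1.49e-07). The probe set cannot assign this signal to either annotated Cidec start shown above.

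Cideb had 12.43 on LASS2-/- HFD and 12.48 on WT HFD, against 12.24 on LASS2-/- chow and 12.30 on WT chow. Both HFD arrays were slightly the higher ones, by 0.19 log2 in LASS2-/- and 0.18 in WT. The mean diet effect of 0.19 did not pass (limma, adjusted p = 0.236). Its 95% interval ran from -0.01 to 0.38, but it measures no spread between animals and sets no bound on the change.

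**Figure D2:**
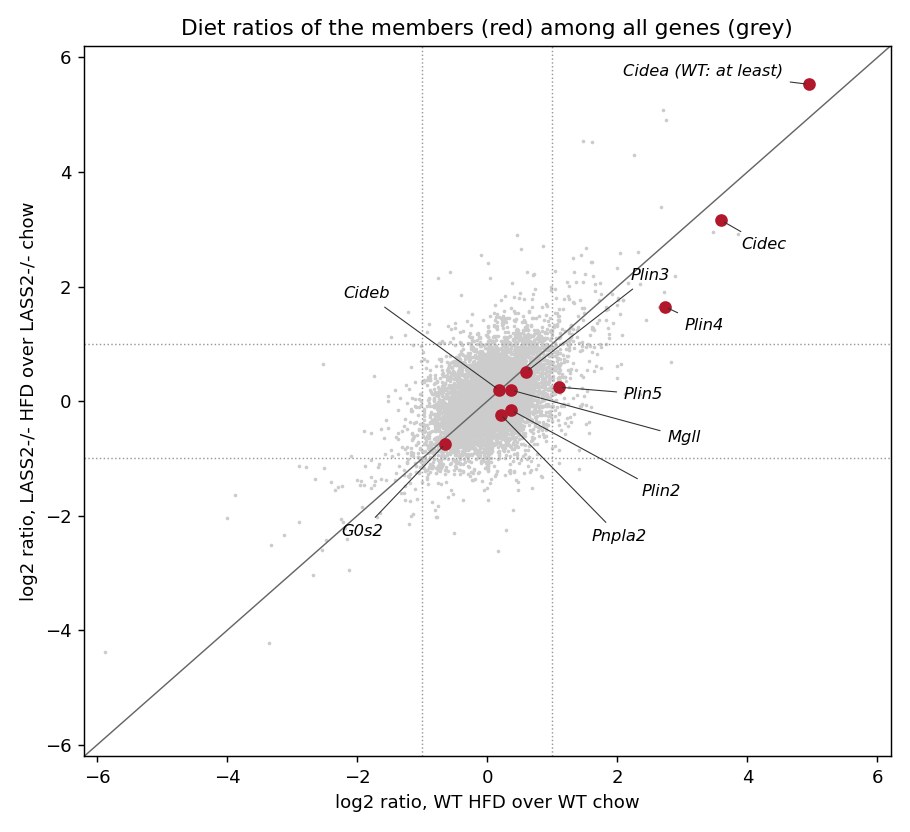
Log2 ratio of HFD over chow in LASS2-/- (vertical) against that in WT (horizontal), with the 10 members in red, 12493 genes in grey, dotted lines at 2-fold and the solid line at equal ratios. Cidea, Cidec and Plin4 lie beyond 2-fold on both axes, Plin5 beyond it in WT and not in LASS2-/-, and G0s2 is the only member below 0 on both axes.

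At the level of single ratios, 3 members were at least 2-fold higher on HFD in LASS2-/- and 4 in WT, where 3.11% and 2.13% of all genes were. Cidea, Cidec and Plin4 were so in both genotypes, which was the case for 0.929% of genes. No member was 2-fold lower in either genotype, against 1.89% of genes in LASS2-/- and 1.24% in WT. In either direction, 5.0% of genes were 2-fold apart in LASS2-/- and 3.37% in WT. The ratio of HFD over chow was above 0 for 7 members in LASS2-/- and 9 in WT, against 49.4% and 55.3% of all genes. Plin2 and Pnpla2 had diet ratios of opposite sign in the genotypes, as had 34.5% of all genes.

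Plin4, a perilipin best known from white adipose tissue, had 10.41 on LASS2-/- HFD and 10.93 on WT HFD, against 8.76 on LASS2-/- chow and 8.19 on WT chow. The diets did not overlap, and the genotype labels changed places between diets: WT was the higher array on HFD and LASS2-/- the higher one on chow. Plin4 was 3.13-fold higher on HFD in LASS2-/- and 6.65-fold higher in WT, with a mean diet effect of 2.19 ± 0.20 log2 (limma, adjusted p = 7.69e-06).

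Plin5, a perilipin of oxidative tissues that binds ATGL and its co-activator, followed the same order of arrays. Its log2 signal was 12.01 on LASS2-/- HFD and 12.53 on WT HFD, against 11.76 on LASS2-/- chow and 11.43 on WT chow. HFD was 1.18-fold higher than chow in LASS2-/- and 2.14-fold higher in WT. The mean diet effect of 0.67 ± 0.15 log2 passed (limma, adjusted p = 0.00955), but not with robust moderation (adjusted p = 0.335) or with the mean of both Plin5 probe sets (adjusted p = 0.0838).

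Plin3, which coats small nascent droplets and is found in most tissues, had 10.11 on LASS2-/- HFD and 10.32 on WT HFD, against 9.61 on LASS2-/- chow and 9.72 on WT chow. The diets did not overlap, and WT was the higher array on both. HFD was 1.42-fold higher in LASS2-/- and 1.51-fold higher in WT, and the mean diet effect was 0.55 ± 0.13 log2 (limma, adjusted p = 0.0141).

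Plin2, the main droplet coat protein of hepatocytes, had 14.27 on LASS2-/- HFD and 14.14 on WT HFD, against 14.43 on LASS2-/- chow and 13.77 on WT chow. WT chow was the low array, and the array labelled LASS2-/- chow was the highest of the 4. The diet ratio was -0.16 log2 in LASS2-/- and 0.37 in WT, and with quantile normalization the LASS2-/- ratio was 0.01. The mean diet effect of 0.11 did not pass (limma, adjusted p = 0.609, 95% interval from -0.12 to 0.33).

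G0s2 had 13.16 on LASS2-/- HFD and 13.18 on WT HFD, against 13.91 on LASS2-/- chow and 13.83 on WT chow. Both HFD arrays were low, and LASS2-/- over WT differed by -0.02 log2 on HFD and by 0.08 on chow. G0s2 was 1.68-fold lower on HFD in LASS2-/- and 1.57-fold lower in WT. It fell by 0.70 ± 0.08 log2 with diet (limma, adjusted p = 6.28e-05).

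Pnpla2, which encodes the lipase that G0s2 inhibits, had 9.93 on LASS2-/- HFD and 9.93 on WT HFD, against 10.16 on LASS2-/- chow and 9.73 on WT chow. The HFD arrays were level and lay between the chow arrays. The diet ratios were -0.24 log2 in LASS2-/- and 0.20 in WT, and the mean diet effect of -0.02 did not pass (limma, adjusted p = 0.963, 95% interval from -0.33 to 0.29). With the mean of both Pnpla2 probe sets it was -1.75 (limma, adjusted p = 0.0373), a value carried by a probe set that lay under the floor on all 4 arrays.

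Mgll had 12.60 on LASS2-/- HFD and 12.74 on WT HFD, against 12.41 on LASS2-/- chow and 12.37 on WT chow. Both HFD arrays were the higher ones, by 0.19 log2 in LASS2-/- and 0.37 in WT. The mean diet effect of 0.28 ± 0.09 did not pass (limma, adjusted p = 0.0718, 95% interval from 0.08 to 0.48). Without probe sets whose names end in _x_at or _s_at, another Mgll probe set gave 0.34 (limma, adjusted p = 0.0468), and with the mean of all 4 the effect turned to -0.49 (limma, adjusted p = 0.188).

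**Figure D3:**
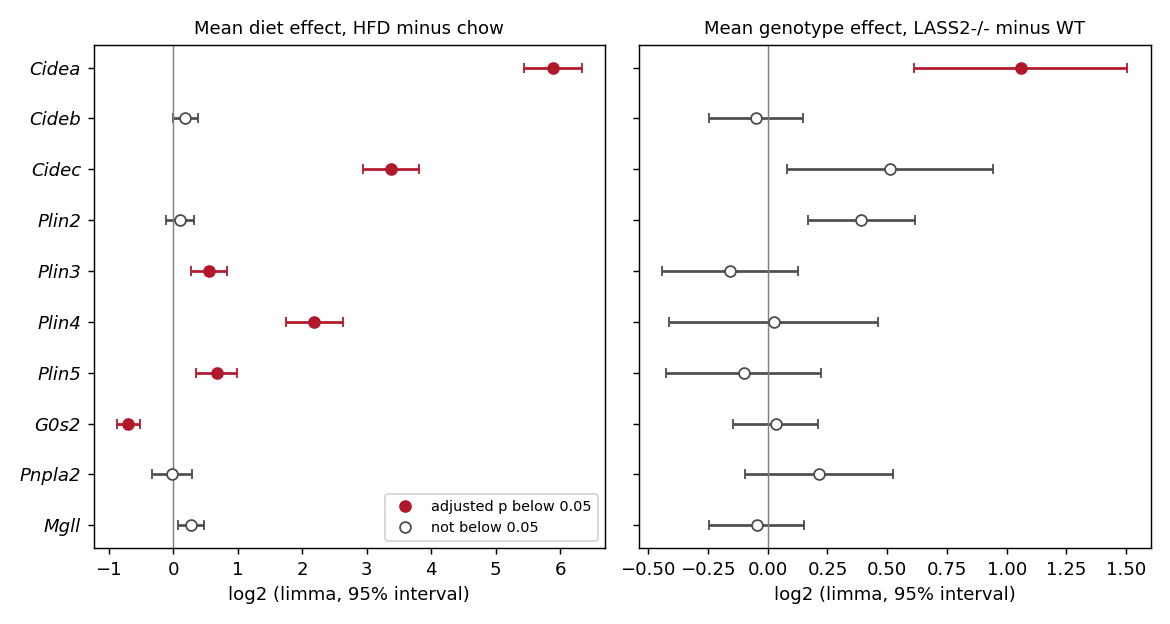
Mean effect of diet (left, HFD minus chow) and of genotype label (right, LASS2-/- minus WT) in log2 for each member, with bars for the 95% interval of the moderated limma fit and filled points for adjusted p below 0.05; the axes differ in scale. For diet, 5 members are filled above 0 and G0s2 below it. For genotype, Cidea is the 1 filled point.

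No member was called 2-fold apart between the arrays labelled LASS2-/- and WT on either diet. Cidea on chow has only a bound of at least 0.12 log2, and under a floor lowered to the 25th percentile it became the 1 member called, at 1.42. Over all genes, 1.96% were called on HFD and 1.58% on chow. Of all genes, 1.47% were 2-fold higher and 0.488% 2-fold lower in LASS2-/- on HFD, and 1.16% were higher and 0.424% lower on chow. On HFD the ratio of LASS2-/- over WT was above 0 for 3 members, Cidea at 0.70 log2, Cidec at 0.29 and Plin2 at 0.13, against 54.3% of all genes above 0. It was lowest for Plin5 at -0.53 and Plin4 at -0.52.

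On chow the ratio was above 0 for 8 members, against 54.6% of all genes. It was 0.73 log2 for Cidec, 0.65 for Plin2, 0.57 for Plin4, 0.43 for Pnpla2 and 0.33 for Plin5, and at least 0.12 for Cidea, whose WT chow value lay under the floor. With the arrays scaled to equal medians, every chow genotype ratio shifted by -0.10, G0s2 and Mgll moved to -0.02 and -0.06, and 6 members stayed above 0, against 35.0% of all genes. Plin4, Plin5, G0s2, Pnpla2 and Mgll had genotype ratios of opposite sign on the diets, as had 43.0% of all genes.

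Averaged over the diets, Cidea was the 1 member that passed for genotype, at 1.06 ± 0.21 log2 (limma, adjusted p = 0.0309), where 0.56% of all genes rose and 0.352% fell, 0.913% together. These were 70 genes higher and 44 lower, and 11 and 11 with arrays scaled to equal medians. Cidea did not pass with values held at the floor, where the effect was 0.41 (limma, adjusted p = 0.55), or with quantile normalization (limma, adjusted p = 0.109). Of the members that did not pass, Plin2 had a mean genotype effect of 0.39 ± 0.10 (limma, adjusted p = 0.124) and Cidec 0.51 ± 0.20 (limma, adjusted p = 0.363). These 3 were the members with an unadjusted p under 0.05, which 10.4% of all genes had. Of 8 macrophage markers 2, Marco and Lyz2, also rose with the LASS2-/- label (limma), and the summed linear signal of the 8 was 22800 on LASS2-/- HFD and 14900 on WT HFD, against 19000 on LASS2-/- chow and 15100 on WT chow. Their part in the members' values was not tested.

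**Figure D4:**
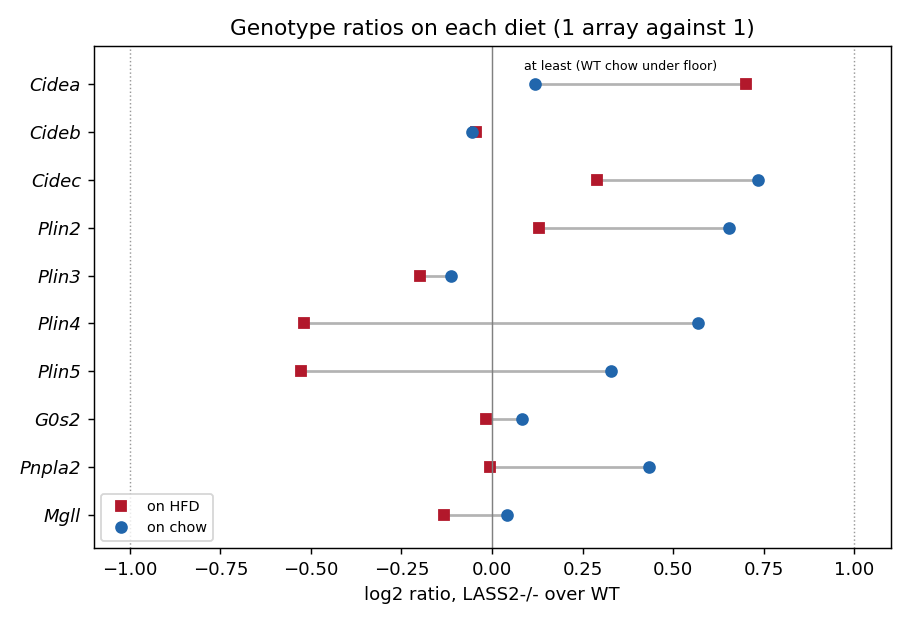
Log2 ratio of LASS2-/- over WT on HFD (red squares) and on chow (blue circles) for each member, each from 1 array against 1, with dotted lines at 2-fold. Plin4 and Plin5 lie above 0 on chow and below 0 on HFD, Cidec and Plin2 lie above 0 on both with the larger ratio on chow, and no point reaches a dotted line, with Cidea on chow drawn at its bound.

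The diet ratio, taken with its sign, was smaller in LASS2-/- than in WT for 8 of the 10 members, against 51.0% of all genes. These 8 were among the 9 members that were above the floor on every array. For G0s2 the smaller ratio was a larger fall, -0.75 log2 in LASS2-/- and -0.65 in WT. Plin2 and Pnpla2 had ratios below 0 in LASS2-/- and above 0 in WT. The difference of the diet ratios was -1.09 log2 for Plin4, -0.86 for Plin5, -0.52 for Plin2, -0.44 for Cidec and -0.44 for Pnpla2. It lay nearer to 0 for Mgll at -0.17, G0s2 at -0.10, Plin3 at -0.09 and Cideb at 0.01, the exception among the 9. For Cidea the direction depends on the floor: the difference was 0.58 with WT chow held at it and -0.71 with the lower floor at the 25th percentile. Plin4 was the 1 member with a difference of at least 2-fold, which 4.31% of all genes had, and with arrays scaled to equal medians 0 members had one. With that scaling G0s2 and Plin3 turned to 0.00 and 0.02, which left 4 of 10 members with the larger ratio in LASS2-/-, against 62.2% of all genes. No array remained to test any of these differences, which on values without the floor are themselves the residual of the limma fit. For Plin4, Plin5, Plin2, Cidec and Pnpla2 the chow value was higher on the array labelled LASS2-/-. That value is itself part of the difference.

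Plin5, Pnpla2 and Mgll each had more than 1 probe set. Both Plin5 probe sets gave the same pattern, the dimmer with 10.72 on LASS2-/- HFD and 11.18 on WT HFD, against 10.40 on LASS2-/- chow and 10.12 on WT chow. In a limma fit of 22081 probe sets, each as a feature of its own, both passed for diet, with effects of 0.69 (adjusted p = 0.0203) and 0.67 (adjusted p = 0.0223). Of the 4 Mgll probe sets, 3 had diet ratios from 0.12 to 0.20 log2 in LASS2-/- and from 0.37 to 0.48 in WT. The other was under the floor on 3 arrays and above it on WT chow, at 6.54. In Pnpla2, 1 of 2 probe sets was under the floor throughout, at 1.38 on LASS2-/- HFD and 2.60 on WT HFD, against 5.31 on LASS2-/- chow and 5.66 on WT chow.

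**Figure D5:**
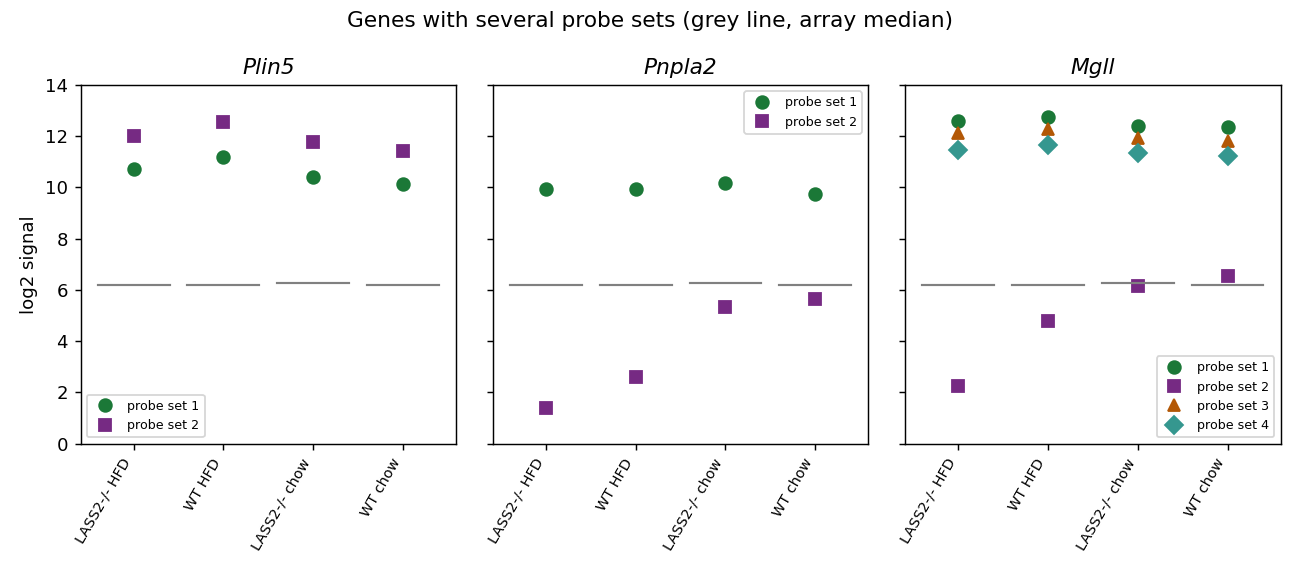
Log2 signal of every probe set of Plin5, Pnpla2 and Mgll on each array, 1 symbol per probe set, with grey lines at the array medians. The Plin5 probe sets and 3 of the 4 Mgll probe sets run in parallel, while the dim probe sets of Pnpla2 and Mgll lie mostly under the median and are lowest on HFD.

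Among 24 other genes of droplet formation and breakdown, 23 were measured, of which 4 rose and 2 fell with diet (limma over all genes), against 6.26% and 5.04% of all genes. Their median diet ratio was -0.01 log2 in LASS2-/- and -0.03 in WT. Fitm1, which promotes droplet formation, rose by 1.99 ± 0.19 log2 (limma, adjusted p = 9.4e-06). Its signal was 11.71 on LASS2-/- HFD and 11.44 on WT HFD, against 9.16 on LASS2-/- chow and 10.00 on WT chow. Nsdhl, a cholesterol synthesis enzyme that can reside on droplets, rose by 0.95 ± 0.11 (limma, adjusted p = 6.1e-05). Lipa, lysosomal acid lipase, rose by 0.47 ± 0.10 (limma, adjusted p = 0.00558), and Bscl2, which encodes seipin, by 0.33 ± 0.10 (limma, adjusted p = 0.0444).

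The 2 genes that fell both act on ATGL. Abhd5, its co-activator, had 9.84 on LASS2-/- HFD and 9.75 on WT HFD, against 10.47 on LASS2-/- chow and 10.42 on WT chow, and fell by 0.65 ± 0.13 log2 (limma, adjusted p = 0.00403). Hilpda, an ATGL inhibitor like G0s2, had 7.53 on LASS2-/- HFD and 7.02 on WT HFD, against 9.44 on LASS2-/- chow and 7.82 on WT chow, and fell by 1.35 ± 0.27 (limma, adjusted p = 0.00449). As with G0s2, both HFD arrays lay below both chow arrays for Abhd5 and for Hilpda. Lipe, hormone-sensitive lipase, had a mean diet effect of 0.23 ± 0.34 (limma, adjusted p = 0.749). For genotype, 0 of the 23 passed (limma), and 6 had an unadjusted p under 0.05, against 10.4% of all genes.

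Of 7 transcriptional regulators of droplet and lipid genes, 3 rose and 1 fell with diet, against 6.26% and 5.04% of all genes. Pparg, the nuclear receptor of adipocyte differentiation that is also known to induce Cidea and Cidec in fatty mouse liver, had 9.46 on LASS2-/- HFD and 9.17 on WT HFD, against 7.45 on LASS2-/- chow and 7.91 on WT chow. It rose by 1.63 ± 0.21 log2 (limma, adjusted p = 0.000147). On chow, LASS2-/- was the lower array for Pparg, at -0.46 log2. It was the higher array for 8 members, Cidea and Cidec among them, and the lower one for Cideb and Plin3. On HFD, LASS2-/- was the higher array for Pparg, at 0.29 log2, and for Cidea, Cidec and Plin2. It was the lower array for the other 7 members. The part of Pparg in the members' values was not tested. Ppara rose by 0.39 ± 0.09 (limma, adjusted p = 0.0133) and Srebf1 by 0.85 ± 0.18 (limma, adjusted p = 0.00797), while Ppargc1a fell by 0.66 ± 0.13 (limma, adjusted p = 0.00418). Srebf1 was also the 1 regulator that passed for genotype, and it fell by 1.16 ± 0.18 with the LASS2-/- label (limma, adjusted p = 0.00743). Its signal was 12.66 on LASS2-/- HFD and 13.22 on WT HFD, against 11.21 on LASS2-/- chow and 12.97 on WT chow. LASS2-/- chow was thus the low array, and the diet ratio was 1.45 log2 in LASS2-/- and 0.25 in WT.

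Cidea, Cidec and Plin4 are also genes of adipocytes. Of 8 adipocyte markers, 5 were named on the array and 2 were measured: Adipoq, Lep and Ucp1 were under the floor on all 4 arrays. Fabp4, which macrophages and steatotic liver also express, rose by 1.37 ± 0.16 log2 (limma, adjusted p = 4.51e-05). Retn was near or under the floor. The summed linear signal of the measured 2 came nearly all from Fabp4. This sum was 2320 on LASS2-/- HFD and 2390 on WT HFD, against 1200 on LASS2-/- chow and 707 on WT chow. Of 6 measured hepatocyte markers, 0 rose and 2, Hnf4a and Fgb, fell with diet (limma), against 6.26% and 5.04% of all genes. The summed signal of the 6 ranged from 185000 to 221000 over the arrays, lowest on LASS2-/- HFD. Of the 8 macrophage markers 1, Lyz2, also rose with diet, against the same 6.26% of all genes. Of 6 measured stellate cell markers 1, Dcn, rose and 1, Des, fell with diet (limma), against the same shares of all genes. Their summed signal was 21100 on LASS2-/- HFD and 25300 on WT HFD, against 19700 on LASS2-/- chow and 20400 on WT chow. The part of these cells in the members' values was not tested, and in whole liver more RNA per cell and more cells of a type cannot be told apart.

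Likeness of pattern was measured as the root mean square distance between log2 values held at the floor and centred over the 4 arrays. The genes nearest to Cidec among non-members were Slc22a29 at 0.36 log2, Themis at 0.47 and Slc22a27 at 0.52, and its nearest member was Plin4 at 0.66. For Cidea the nearest were Lcn2 at 0.95, Ly6d at 0.96 and Slc22a29 at 1.09, with Cidec at 0.97. Plin2, which varied little, had Kctd12b at 0.02, Gfod1 at 0.04 and Pigm at 0.04, and Pnpla2 as its nearest member at 0.11. With 4 arrays these distances are descriptions and were not tested.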

How the data were processed

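The deposited table holds log2 signals, 1 per probe set and array, which the authors made with MAS5, per the submitters' processing notes; no version or scaling target is given in the sources used here. Linear means trimmed by 2% at each tail were nearly equal (496.0 to 496.2), so no scaling was added. Platform gene numbers were joined to mouse RefSeq genes (GRCm38.p6): 34945 probe sets had 1 symbol, 932 several and 9160 were not named.

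Ratios were taken after a floor at each array's median, with a 2-fold threshold and no p-value. Mean effects were fitted without the floor by limma 3.58.1 (R 4.3.3), log2 signal on diet plus genotype, with a variance trend, a prior worth 12.7 degrees of freedom and Benjamini-Hochberg adjustment over 12493 genes. The fit was tested on simulated data: calls of unchanged genes stayed close to the threshold where the spread was drawn from limma's own model. Such calls exceeded it with the heavier-tailed moderated spread that the fit gave for these arrays. Ratios were computed with pandas 2.3.3 and numpy 2.4.6 (Python 3.11.15) and drawn with matplotlib 3.10.9.

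The members and gene lists were chosen with earlier results of these data known. Text names every member, Cers2, list genes that passed limma, Lipe, Abhd5 and Pparg, and the 3 nearest genes to Cidea, Cidec and Plin2, plus cell markers that passed or, for adipocytes, lay near or under the floor. The genes in the closing section that are no members were chosen after their genotype values were seen. Plin1, Trf, Cfd and Adrb3 were not matched and not analysed here. Precision is limited by having 4 arrays.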

Additional observations from a re-analysis of the deposited data

Results flagged for a closer look

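For 7 ratios the sign differed between the groups compared. Each rests on 1 array against 1, the differences were not tested, and 34.5% of all genes had diet ratios of opposite sign in the genotypes and 43.0% genotype ratios of opposite sign on the diets. The diet ratio of Plin2 was -0.16 log2 in LASS2-/- and 0.37 in WT, a difference of -0.52. That of Pnpla2 was -0.24 in LASS2-/- and 0.20 in WT, a difference of -0.44. The genotype ratio of Plin4 was -0.52 on HFD and 0.57 on chow, a difference of -1.09. For Plin5 it was -0.53 on HFD and 0.33 on chow, a difference of -0.86, and both Plin5 probe sets had this order. For Pnpla2 it was -0.01 on HFD and 0.43 on chow, a difference of -0.44. For Mgll it was -0.13 on HFD and 0.04 on chow, a difference of -0.17, and for G0s2 -0.02 on HFD and 0.08 on chow, a difference of -0.10. Plin2 lost its opposite diet signs with quantile normalization, where the LASS2-/- ratio was 0.0073. With equal medians the chow genotype ratios of G0s2 and Mgll were -0.02 and -0.06, with quantile normalization the HFD genotype ratio of G0s2 was 0.03, and with averaged probe sets the WT diet ratio of Pnpla2 was -1.43 and the chow genotype ratio of Mgll was -0.03. No group held enough arrays to look for an outlying one.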

How the results depend on the processing

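With 1 array per group no array could be left out, and no paired analysis was possible because the labels carry no replicate numbers. The diet rises of Cidea, Cidec, Plin3 and Plin4 and the fall of G0s2 passed limma under all 8 alternatives that kept the variance trend, and Plin5 under 6 of the 8. Without the trend 0 members rose, against 5, and 0 fell, against 1. With the mean of all probe sets 2 fell, Pnpla2 joining G0s2. For genotype, the 1 member that rose, Cidea, became 0 with no trend, quantile normalization, equal medians, the mean of all probe sets, every probe set as a feature, no filter on signal and floored values, with adjusted p up to 0.742. It passed with robust moderation and without _x_at and _s_at probe sets. At 1.5-fold in place of 2-fold, 1 member, G0s2, was lower on HFD in each genotype, 1 was higher in LASS2-/- on HFD and 2 on chow, against 0 each. Averaging all probe sets of a gene made 1, Pnpla2, 2-fold lower on HFD in each genotype. With the floor at the 25th percentile 1, Cidea, was 2-fold higher in LASS2-/- on chow, at 1.42 log2. With equal medians 0 members had diet ratios 2-fold apart between genotypes, against 1. For these alternative counts by fold, shares of all genes were not computed, so they describe the members only. Effects that turned sign had not passed: for diet Pnpla2 at 0.0177 with equal medians and Mgll at -0.49 with averaged probe sets, and for genotype Plin4 at -0.027 and G0s2 at -0.0195 with equal medians and Pnpla2 at -0.285 with such averages. Over all genes, limma called 782 higher and 630 lower for diet, against 266 and 242 with averaged probe sets, and 358 lower with equal medians. For genotype it called 70 and 44, against 41 and 38 with robust moderation, 14 and 9 with quantile normalization, 11 and 11 with equal medians, 48 and 24 with every probe set, 33 and 19 with no filter, and 0 and 0 with averaged probe sets or no trend (unadjusted p under 0.05 in 1056 and 820 genes). The cause of these changes was not tested. Signals near the array median limit what can be said of Cidea on chow.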

Other observations

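Among the other droplet genes, Hilpda and Cav1 had single genotype ratios over 2-fold and did not pass limma for the mean genotype effect. Hilpda, the ATGL inhibitor, was 3.06-fold higher on chow, with 9.44 on LASS2-/- chow against 7.82 on WT chow, and 0.50 log2 higher on HFD, with 7.53 on LASS2-/- HFD against 7.02 on WT HFD (limma, mean effect 1.06 ± 0.27, adjusted p = 0.102). Cav1, which encodes caveolin, a membrane protein that can coat droplets, was 2.81-fold higher on HFD, with 9.36 on LASS2-/- HFD against 7.87 on WT HFD, and 0.16 log2 higher on chow, with 8.19 on LASS2-/- chow against 8.03 on WT chow (limma, mean effect 0.83 ± 0.26, adjusted p = 0.229). Over all genes, 1.47% were at least 2-fold higher in LASS2-/- on HFD and 1.16% on chow.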
